A study of Mus musculus with 104 samples.

Results

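The Dcc break cluster was followed as the set of DNA junctions that fell in a fixed 2 Mb window on mouse chromosome 18, from 71 to 73 Mb of the mm9 build, which holds Dcc. Across the 24 deposited junction tables this window held 873 junctions, each read name counted once per table, out of 531098 junctions that lay more than 5 Mb from the bait break of their own table and 2018794 junctions in all. Junctions more than 5 Mb from the own bait break are called far junctions here, and the level of the window is given as window junctions per 100000 far junctions. Junctions were mapped by HTGTS, high-throughput genome-wide translocation sequencing: a bait break is cut at a known site, and DNA ends joined to it from elsewhere in the genome are amplified and sequenced. Both cell types came from the same 2 lines: embryonic stem cells (ESC), and the neural progenitor cells (NPC) differentiated from them in culture. All of them, the controls included, carried the genotype Xrcc4-/- p53-/- on the C57BL6/129SVE background. Each line was cut at a bait on chromosome 7, 12 or 15, and was treated either with APH, the replication inhibitor aphidicolin, or with the solvent DMSO. Lettered experiments of the same cell type, line, bait and treatment shared a table, called a pool below, which left 6 pools (2 lines by 3 baits) in each of the 4 combinations of cell type and treatment.

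DCC is a transmembrane receptor for netrin-1 that steers growing axons during development of the nervous system, and its gene is very long. Aphidicolin inhibits replicative DNA polymerases and so slows replication forks, and clusters of recurrent breaks in neural progenitors are known to lie in long genes with neural functions. XRCC4 is a core factor of classical non-homologous end joining, so in its absence ends are joined by alternative routes, and loss of p53 lets cells with unrepaired breaks survive. In the GRCm38.p6 RefSeq gene table, which is of another build and was used for names only, the nearest protein-coding neighbours of Dcc were Mbd2 on the side of lower coordinates and Mex3c on the side of higher coordinates, and no protein-coding gene lay inside Dcc. The exons, introns and ends of Dcc in mm9 were not analysed here, so positions are given as distances from the start of the window. DNA junctions carry no expression markers, so the cell type labels could not be checked against marker genes. The labels do not say whether the lettered experiments came from separate cultures, so spreads and p-values measure the variation between these pools, which may be technical.

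Some tables held the same junctions, and this bears on every value for NPC with the bait on chromosome 15. In the 4 pools of NPC with this bait, 67.7% to 77.6% of the junctions off the bait chromosome recurred in another pool of the same bait at the same position, strand and bait end, against 1.72% to 25.2% in the other 20 pools. Pools of different baits shared a median of 0.0976% of the smaller pool by position and strand. The line 1 experiments labelled APH B and D had 79.4% and 82.4% of their junctions in the line 2 table labelled APH, while line 1 experiments A and C of the same label had 73.6% and 69.7% of theirs in the line 2 table labelled DMSO. Likewise, line 1 DMSO experiments A and D had 63.9% and 66.5% of their junctions in the line 2 table labelled APH. Line 1 DMSO experiments B and C had 63.1% and 68.7% of theirs in the line 2 DMSO table. The treatment labels of the lines were thus at odds for 4 of these 8 experiments, and the tables do not show which label is right. Of the window junctions, 398 of 497 in the NPC pools of the chromosome 15 bait recurred in another pool of that bait, compared with 23 of 179 for the chromosome 12 bait and 0 of 146 for the chromosome 7 bait. Of the 51 ESC window junctions, 6 were also present in an NPC pool of the same bait, all 6 of them under DMSO. Sharing reached other experiments too. For the chromosome 12 bait, NPC line 1 APH experiment C had 43.5% of its junctions in line 2 APH experiment D (371 and 608 per 100000 in the window). ESC line 1 DMSO experiment A of that bait had 30.6% in NPC line 1 DMSO experiment B. ESC line 2 DMSO experiment A of the chromosome 15 bait had 33.3% in the NPC line 2 APH pool. Lines and cell types were thus not fully separate there. The comparisons between treatments and cell types below are therefore given with and without the NPC line 2 pools of the chromosome 15 bait. Because the right labels are not known, the edgeR fits are also given without the line 1 pools of that bait, left out in both cell types. Pools held 4713 to 12945 far junctions in ESC and 12526 to 88587 in NPC, so single ESC pools carry the widest intervals.

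The Dcc window was highest in APH-treated NPC. The 6 pools labelled NPC APH held 599 window junctions. For the chromosome 7 bait, the level was 245 junctions per 100000 far junctions in line 1 (77 junctions) and 151 in line 2 (33 junctions). For the chromosome 12 bait it was 174 in line 1 (81 junctions) and 368 in line 2 (60 junctions), and for the chromosome 15 bait it was 257 in line 1 (228 junctions) and 179.6 in line 2 (120 junctions). Both chromosome 15 values rest in part on conflicting labels. In line 1, experiments A and C, with such labels, gave 64 and 53 of the 228 junctions. The line 2 pool held most junctions of line 1 DMSO experiments A and D (59.9 and 84.4 per 100000 in the window). The line 2 pool of the chromosome 12 bait was the highest of the series, with a 95% Clopper-Pearson interval of 281 to 473, and the line 2 pool of the chromosome 7 bait was the lowest of the 6, at 104 to 212. These intervals cover counting error only, and they take each junction as a separate molecule. Amplified reads that carry no molecular identifier cannot be taken as such, so the intervals may be too narrow. The mean was 229 ± 79.7 per 100000 (SD, n = 6), and 231 ± 84.5 (SD, n = 5) with the chromosome 15 pools of both lines averaged.

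In NPC under DMSO, the window held 223 junctions. The chromosome 7 pools had 137 per 100000 in line 1 (20 junctions) and 75.4 in line 2 (16 junctions). The chromosome 12 pools had 96.7 in line 1 (23 junctions) and 119.8 in line 2 (15 junctions). The chromosome 15 pools had 82.7 in line 1 (30 junctions) and 203 in line 2 (119 junctions). The line 2 pool of the chromosome 15 bait thus stood above the other 5 DMSO pools and above 3 of the 6 APH pools. The other 5 DMSO pools reached 137 at most, and the lowest APH pool was at 151. How many windows separate the treatments in this way with that pool left out was not counted. Within the line 2 pool of the chromosome 15 bait, experiments A and D held 56 and 49 window junctions (344 and 222 per 100000). Its experiments B and C held 6 and 8 (64.0 and 73.5 per 100000). A and D are the experiments with the conflicting label: 75.3% and 71.7% of their junctions were in line 1 experiments A and C, labelled APH (382 and 232 per 100000). B and C matched line 1 experiments labelled DMSO. The high level of this pool thus lay in experiments whose treatment is uncertain. The mean was 119 ± 47.2 (SD, n = 6), and 102 ± 25.9 (SD, n = 5) without that pool.

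The ESC levels were lower than those of APH-treated NPC in all pools. Under APH the ESC pools held 25 window junctions and ranged from 11.8 per 100000 (line 1, chromosome 12 bait, 1 junction) through a median of 48.3 to 86.7 (line 1, chromosome 15 bait, 9 junctions). Under DMSO they held 26 junctions and ranged from 30.9 (line 2, chromosome 12 bait, 4 junctions) through a median of 72.99 to 126 (line 1, chromosome 12 bait, 6 junctions). The means were 48.9 ± 26.6 under APH and 70.0 ± 35.4 under DMSO (SD, n = 6 each). The ESC treatments overlapped across most of their ranges, whereas the lowest APH-treated NPC pool stood above the highest ESC pool of either treatment. Of 1281 windows of 2 Mb, 2.65% had all NPC APH pools above all ESC APH pools and 2.73% had them above all ESC DMSO pools. Put in order, the condition means fell from NPC APH through NPC DMSO and ESC DMSO to ESC APH. In this order, neither NPC DMSO and ESC DMSO nor ESC DMSO and ESC APH differed past the threshold in the fit over the 24 pools below.

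**Figure D1:**
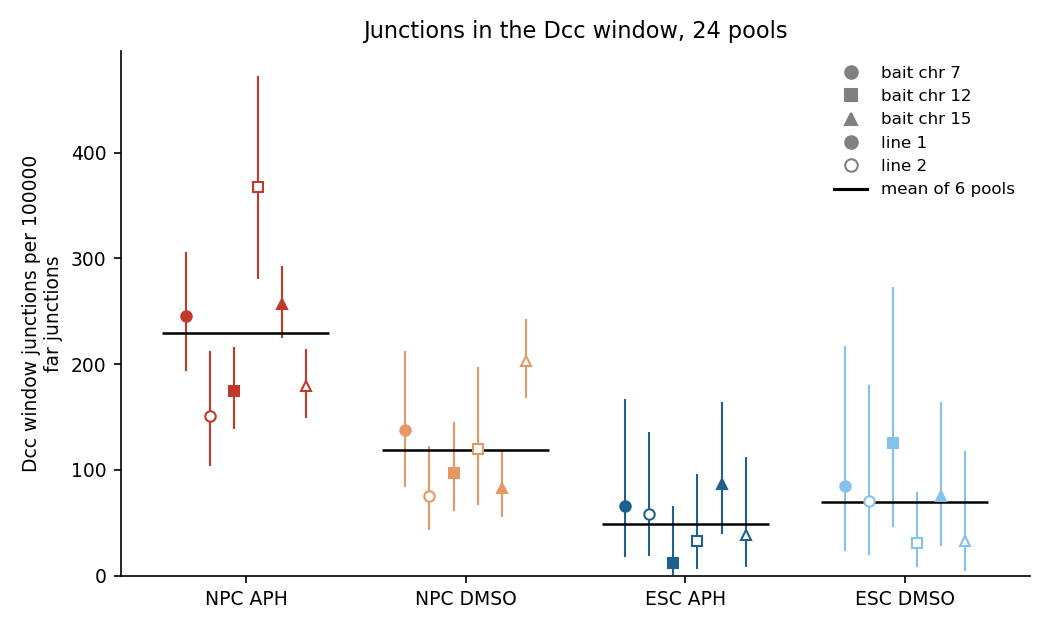
Level of the Dcc window in each of the 24 pools, in window junctions per 100000 junctions more than 5 Mb from the bait break (vertical axis), by cell type and treatment; symbols mark the bait chromosome, filled symbols line 1, open symbols line 2, bars the 95% Clopper-Pearson interval and black lines the mean of 6 pools. The NPC APH pools run from 151 to 368, above all ESC pools, and the open triangle at 203 in NPC DMSO is the line 2 pool of the chromosome 15 bait.

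The design asks whether slowed replication changes the share of junctions that reach the Dcc window, and whether this differs between stem cells and progenitors. Counts in all 2 Mb windows of the genome were fitted together with edgeR's quasi-likelihood test, with a block for line and bait, and p-values were adjusted by Benjamini-Hochberg over the 1204 windows kept. In NPC, the Dcc window rose 1.98-fold with APH (log2 fold change 0.98 ± 0.21 SE, edgeR adjusted p = 0.000492), up in 5 of 6 line and bait pairs. In this comparison 60 windows, 4.98% of those tested, were called higher, and the Dcc window ranked 26 by p-value. Without the NPC line 2 pools of the chromosome 15 bait the change was 2.53-fold (log2 1.34 ± 0.20, edgeR adjusted p = 2.23e-08), where 7.23% of windows were called higher. Without the chromosome 15 pools of both NPC lines it was 2.29-fold (log2 1.19 ± 0.24, edgeR adjusted p = 9.34e-05), where 5.32% were called higher. Without the line 1 pools of that bait it was smaller (log2 0.79 ± 0.23, edgeR adjusted p = 0.029), where 38 of 1215 windows were called higher. The call was lost when line 1 was left out (log2 0.76 ± 0.33, edgeR adjusted p = 0.676) and when the line and bait block was dropped (log2 1.04 ± 0.34, edgeR adjusted p = 0.195).

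In ESC, the fitted change with APH was a log2 fold change of -0.34 ± 0.46 (edgeR adjusted p = 0.896), with a 95% interval from 0.418-fold to 1.49-fold. In that comparison 1.08% of windows were called higher. The ESC interval thus takes in a fall and a rise, and its upper bound met the lower bound of the NPC interval, 1.48-fold. The difference between the APH effects, NPC minus ESC, was 1.32 ± 0.51 on the log2 scale and did not pass adjustment over all windows (edgeR adjusted p = 0.348), nor did it without the NPC line 2 pools of the chromosome 15 bait (1.67 ± 0.49, edgeR adjusted p = 0.0607). It was 1.53 ± 0.50 without the NPC pools of that bait in both lines (edgeR adjusted p = 0.166). Without the line 1 pools of that bait it was 1.34 ± 0.57 (edgeR adjusted p = 0.565). For this difference edgeR called 0 of 1204 windows higher (percent called 0) and 2 lower, with 102 windows at an unadjusted p under 0.05, and DESeq2 called 1 higher and 1 lower. With the lettered experiments in place of pools the difference was 1.78 ± 0.61 (edgeR adjusted p = 0.0599, with 3.59% of 251 windows called higher). It passed with the NPC line 2 experiments of the chromosome 15 bait also left out (1.75 ± 0.58, edgeR adjusted p = 0.0422, with 5.08% of 236 windows called higher). The difference thus passed only with lettered experiments of the same line, bait and treatment as the unit, and with adjustment over fewer windows. No fit of the pools passed, so whether the APH effect on the window differs between the cell types is not settled here.

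Between cell types, the window was 4.45-fold higher in NPC than in ESC under APH (log2 2.15 ± 0.34 SE, edgeR adjusted p = 2.65e-06), higher in 6 of 6 line and bait pairs. There 5.15% of windows were called higher in NPC and 3.57% lower, and the Dcc window ranked 6 by p-value. Without the NPC line 2 pools of the chromosome 15 bait the difference was 2.14 ± 0.33 on the log2 scale (edgeR adjusted p = 1.73e-06). Without the line 1 pools of that bait it was 2.39 ± 0.38 (edgeR adjusted p = 1.15e-06). The call held in all 30 alternative fits of the comparison, the DESeq2 fit and single bins included, with adjusted p-values between 1.45e-15 and 0.00625. The 500 kb bins among these were kept by the count filter through NPC. Under DMSO the window was 1.90-fold higher in NPC (log2 0.93 ± 0.37, edgeR adjusted p = 0.287), and higher in 5 of 6 pairs, with 0.166% of windows called higher and 0.332% lower. That difference did not pass the threshold, and without the NPC line 2 pool of the chromosome 15 bait it was smaller (log2 0.58 ± 0.38, edgeR adjusted p = 0.602). It was 0.87 ± 0.42 on the log2 scale without the NPC pools of that bait in both lines (edgeR adjusted p = 0.441). Without the line 1 pools of that bait it was larger (log2 1.13 ± 0.40, edgeR adjusted p = 0.215). The lines were not tested against each other. The DMSO difference was 0.14 ± 0.47 on the log2 scale in line 1 alone (edgeR adjusted p = 0.952) and 1.75 ± 0.56 in line 2 alone (edgeR adjusted p = 0.506). The line 2 value includes the chromosome 15 DMSO pool with conflicting labels, at 6.24 times the ESC level. For chromosomes 7 and 12 the ratios were 1.07 and 3.88 in line 2. In line 1 they were 1.62, 0.77 and 1.10 for chromosomes 7, 12 and 15. With the lettered experiments in place of pools the DMSO difference passed (log2 1.37 ± 0.39, edgeR adjusted p = 0.0093), in a fit where 12.4% of 251 windows were called higher. That fit counts the chromosome 15 experiments of both NPC lines as separate, although they share most of their junctions. Without the NPC line 2 experiments of that bait the call was lost (log2 1.05 ± 0.41, edgeR adjusted p = 0.0762), where 7.2% of 236 windows were called higher.

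**Figure D2:**
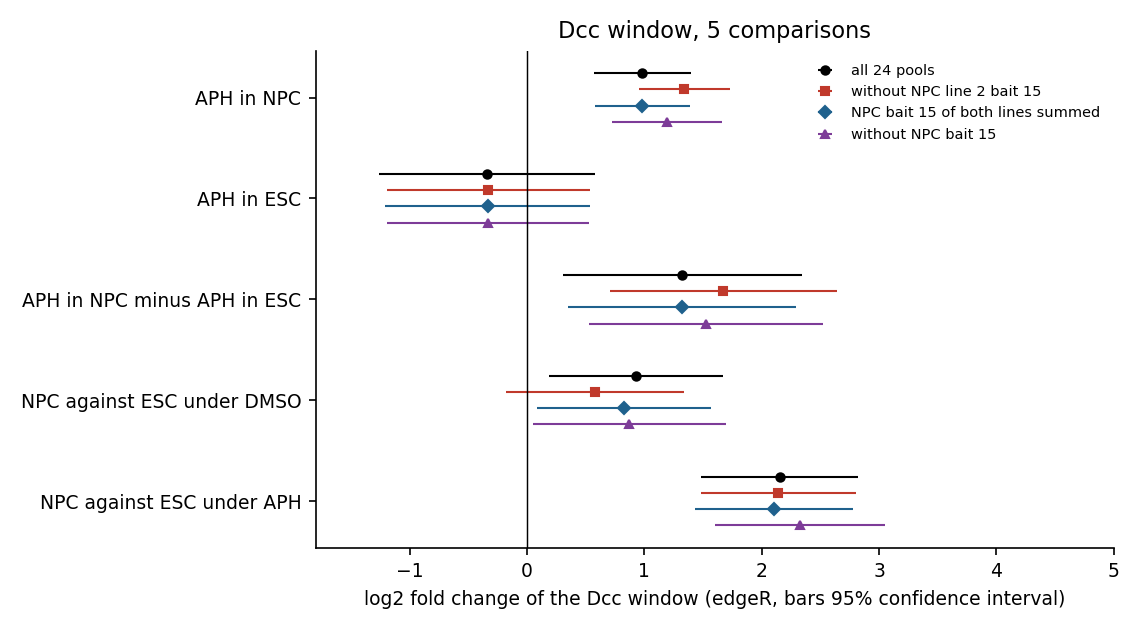
Log2 fold change of the Dcc window (horizontal axis, edgeR, bars the 95% confidence interval) in the 5 comparisons, with all 24 pools and with the NPC pools of the chromosome 15 bait partly left out, summed or left out. The APH effect in NPC and the cell type difference under APH lie above 0 in each version, and the APH effect in ESC spans 0.

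Exact sign-flip permutation tests on the level itself, over the 6 line and bait pairs, gave the same order of sizes with less power, since 6 pairs cannot go below p = 0.031 (two-sided). The NPC level differed by 110 ± 93.0 per 100000 between APH and DMSO (SD of 6 pairs, exact p = 0.0625, adjusted over the 5 comparisons 0.104), and without the line 2 pair of the chromosome 15 bait by 137 ± 73.8 in 5 of 5 pairs (exact p = 0.0625, the smallest that 5 pairs allow). The ESC level differed by -21.1 ± 46.9 (exact p = 0.344), and by -2.55 ± 12.8 without the line 1 pair of the chromosome 12 bait. The difference of these APH effects, NPC minus ESC, was 131 ± 95.4 in 5 of 6 pairs (exact p = 0.0625), and 163 ± 60.4 in 5 of 5 without the line 2 pair of the chromosome 15 bait (exact p = 0.0625). Under APH, NPC exceeded ESC by 180.4 ± 81.8 in 6 of 6 pairs (exact p = 0.031, adjusted 0.104), and by 188 ± 88.9 in 5 of 5 without that pair (exact p = 0.0625). Under DMSO, NPC exceeded ESC by 49.2 ± 72.3 (exact p = 0.156), and by 24.9 ± 46.0 in 4 of 5 without that pair (exact p = 0.312). None of the 5 passed 0.05 after adjustment.

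Single experiments could be followed in the 87 of 104 experiments whose letters matched the labels and that held at least 100 far junctions. A window junction was found in all 19 NPC APH and all 24 NPC DMSO experiments, with medians of 199 and 88.9 per 100000. The NPC APH experiments ranged from 28.6 to 608 and the NPC DMSO experiments from 37.4 to 344, so single experiments of the treatments overlapped. In ESC, 14 of 28 APH and 9 of 16 DMSO experiments held a window junction, with medians of 17.5 and 29.1. The ESC experiments were shallow, at 409 to 3646 far junctions each against 1803 to 25034 in NPC. An ESC experiment with 0 window junctions allows a level of up to 102 to 733 per 100000 (3 junctions of its far total), so the NPC DMSO median lay within what each of them allows.

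Under APH in NPC, the level did not sort by line across the baits. There the pair of lines gave 151 and 245 with the chromosome 7 bait, 174 and 368 with the chromosome 12 bait, and 179.6 and 257 with the chromosome 15 bait. Line 1 was the higher for chromosomes 7 and 15 and line 2 for chromosome 12. The bait means of 198, 271 and 218 were closer to each other than the lines were within any bait. In ESC, line 1 had a mean of 95.3 under DMSO and line 2 a mean of 44.7 (n = 3 each), with all line 1 pools at 75.4 or above and all line 2 pools at 70.5 or below. These pools held 2 to 6 window junctions each. Under APH the ESC lines overlapped, at 11.8 to 86.7 in line 1 and 32.8 to 58.3 in line 2. The difference between lines under DMSO was not tested, and how many windows separate the lines in this way was not counted. Window junctions made up a median of 6.76% of the far junctions of chromosome 18 in NPC APH pools (range 5.03% to 10.2%), compared with 2.86% in NPC DMSO, 1.78% in ESC APH and 2.52% in ESC DMSO.

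In NPC under APH the window stood above its surroundings. Under APH, the 2 Mb before the window held 89.1 ± 11.3 junctions per 100000 and the 2 Mb after it 59.4 ± 11.4 (SD, n = 6), against 229 ± 79.7 within it. The window exceeded the mean of its flanks in 6 of 6 NPC APH pools, by 155 ± 85.6 (exact sign-flip permutation p = 0.031, adjusted over the 4 conditions 0.125), with single pools between 75.6 and 306 above, and by 166.7 ± 90.2 in 5 of 5 without the line 2 pool of the chromosome 15 bait. The adjusted value did not pass 0.05, and 14.2% of 1233 windows also stood above their flanks in these 6 pools. Under DMSO the NPC window exceeded its flanks in 4 of 6 pools, by 38.7 ± 48.7 (exact p = 0.125), where 5.19% of windows did so in all 6, and the line 2 pool of the chromosome 15 bait alone stood 124 above. Without that pool the mean excess was 21.7 ± 28.2 (n = 5). In ESC the window differed from its flanks by -14.1 ± 35.3 under APH (exact p = 0.469) and by 6.68 ± 39.5 under DMSO (exact p = 0.719), each with 3 of 6 pools above, so no local excess was detectable there at this depth. In these ESC groups 2.84% (APH) and 2.35% (DMSO) of windows stood above their flanks in all 6 pools. In bins of 500 kb, a lesser rise stood 2.25 Mb before the centre of the window in NPC, at 44.4 ± 10.9 under APH and 40.5 ± 10.8 under DMSO, where the treatments overlapped fully.

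**Figure D3:**
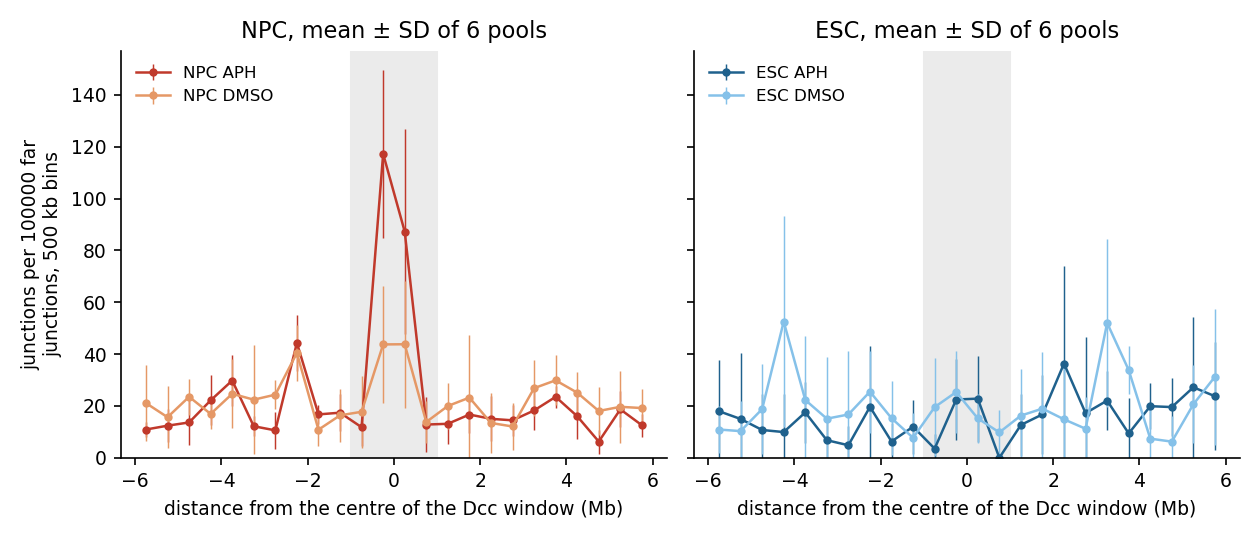
Junctions per 100000 far junctions in 500 kb bins (vertical axis) by distance from the centre of the Dcc window (horizontal axis, Mb), as the mean of 6 pools with SD bars cut at 0, for NPC (left) and ESC (right); grey marks the window. In NPC the 2 central bins reach 117 and 87.3 under APH and 43.8 each under DMSO, and in ESC they lie between 15.2 and 25.4.

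Inside the window, the junctions of NPC crowded into the central megabase. In NPC under APH the inner bins of 500 kb held 117 ± 32.3 and 87.3 ± 39.4 junctions per 100000, against 11.8 ± 7.36 and 12.8 ± 10.5 in the outer bins (SD, n = 6). Of the 599 NPC APH junctions, 527 lay between 500 and 1500 kb from the window's start, or 88.0% (95% Clopper-Pearson interval 85.1% to 90.5%), and the 6 pools ranged from 84.2% to 100%. In NPC under DMSO the share was 76.7% (70.6% to 82.1%) with pools from 50% to 86.7%, and the pools of the chromosome 15 bait in line 2 gave 84.2% under APH and 84.0% under DMSO. In ESC it was 23 of 25 junctions under APH and 15 of 26 under DMSO. The 599 NPC APH junctions had 477 distinct combinations of position and strand. Junctions shared by the chromosome 15 pools count more than once here, so the intervals over summed NPC pools are too narrow. The counts in the consecutive 500 kb bins were 37, 298, 229 and 35 in NPC APH and 29, 86, 85 and 23 in NPC DMSO. In ESC they were 2, 12, 11 and 0 under APH and 7, 9, 6 and 4 under DMSO.

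In segments of 100 kb, NPC APH counts ran from 1 junction (200 to 300 kb) through a median of 19.5 to 97 junctions at 900 to 1000 kb, which alone held 16.2% of the total. The rise on the lower side went from 5 junctions at 300 to 400 kb to 17 at 400 to 500 kb and 40 at 500 to 600 kb. The fall on the upper side went from 22 junctions at 1400 to 1500 kb to 4 at 1500 to 1600 kb, and 544 of the 599 junctions lay between 400 and 1500 kb. NPC DMSO peaked in the same segment, with 25 junctions, a median of 10 and a lowest count of 1. In both ESC treatments the fullest segment was at 500 to 600 kb, with 8 and 7 junctions, and 10 of the 20 segments were empty. Fitted as single 500 kb bins, the bin at 500 to 1000 kb rose with APH in NPC (log2 1.34 ± 0.34, edgeR adjusted p = 0.00248), and the bin at 1000 to 1500 kb did not pass (log2 0.93 ± 0.34, edgeR adjusted p = 0.0633). In that comparison 71 of 882 bins were called higher. The outer bins held too few junctions to be kept. Under APH both central bins were higher in NPC than in ESC (log2 2.56 ± 0.50 and 2.26 ± 0.50, edgeR adjusted p = 1.30e-05 and 0.000116), where 120 of 882 bins were called higher. With 12 and 11 junctions in ESC under APH, these bins were kept by the count filter through NPC, where they were high. Within NPC they were highest under APH. Their p-values are therefore no separate support for the APH effect in NPC or for the cell type difference.

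Junctions before the centre of the cluster were mostly minus and those after it mostly plus in NPC under APH. A plus junction here is one whose joined DNA extends from the junction toward higher coordinates, and a minus junction one whose DNA extends toward lower coordinates, which held for all 443 plus and all 430 minus junctions of the window. In the left megabase of the window, 113 of 335 NPC APH junctions were plus (33.7%, 95% Clopper-Pearson interval 28.7% to 39.1%), and in the right megabase 179 of 264 were plus (67.8%, 61.8% to 73.4%). Over the whole window the strands were even, with 292 plus and 307 minus junctions. These sums count junctions shared by the chromosome 15 pools more than once, so the intervals are too narrow. Plus junctions had a median position of 1059 kb and minus junctions one of 868 kb, and the plus median was the higher in each of the 6 pools, by 90.8 to 278 kb. The order of the strands was that of the inner bins: 33.9% of junctions were plus at 500 to 1000 kb and 72.5% at 1000 to 1500 kb. The outer bins, with 37 and 35 junctions, had 32.4% plus at 0 to 500 kb and 37.1% at 1500 to 2000 kb, so the outer right bin went the other way, most of all at 1700 to 1800 kb with 1 plus and 12 minus junctions.

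The left side had the lower plus share for every bait and line in NPC under APH. The plus share of the left megabase was 40.0% and 36.5% for the chromosome 12 and chromosome 7 pools of line 1, 34.5% and 40.0% for those of line 2, and 33.1% and 25.8% for the chromosome 15 pools of lines 1 and 2. In the right megabase it was 61.3% and 80.0% for line 1, 76.9% and 77.4% for the chromosome 7 and 12 pools of line 2, and 62.7% and 68.5% for the chromosome 15 pools. The groups of left and right values did not overlap, and the right megabase exceeded the left by 36.2 ± 9.02 percentage points in 6 of 6 pools (exact sign-flip permutation p = 0.031, adjusted over 8 strand tests 0.0833, the lowest that this design gave and not past 0.05). Among the 21 windows with at least 10 junctions on each side in all 6 NPC APH pools, 38.1% had a higher plus share on the right in every pool. Summed over NPC APH pools, the Dcc window's difference of 34.1 percentage points was the highest of 316 windows with at least 100 junctions on each side, of which 5% were above 20.5 and the median was 0.78. With the line 2 pool of the chromosome 15 bait left out the mean difference was 34.9 ± 9.41 in 5 of 5 pools (exact p = 0.0625, adjusted 0.167), and with junctions found in more than 1 pool left out it was 31.97 ± 13.1 (n = 5).

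This order of the sides was seen with baits of both strands. The bait on chromosome 7 is read on the minus strand and the baits on chromosomes 12 and 15 on the plus strand, with breaks placed at 80451956, 13000857 and 86848205 of their chromosomes (mm9). With the chromosome 7 bait, NPC APH junctions were 37.5% plus on the left and 78.9% on the right. With the chromosome 12 bait they were 37.97% and 69.4%, and with the chromosome 15 bait 30.4% and 64.6%. Differences between baits were not tested.

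Under DMSO, NPC junctions were 44.3% plus on the left (51 of 115) and 61.1% on the right (66 of 108). The 3 pools with at least 10 junctions on each side all had the higher plus share on the right, by 10 to 27.7 percentage points, which 3 pools cannot bring below an exact p of 0.25. Of the other 3 pools, the chromosome 12 pools of both lines had the lower plus share on the right, with 6 to 17 junctions on a side. In ESC, plus junctions prevailed on both sides, with 19 of 30 on the left (63.3%, 43.9% to 80.1%) and 15 of 21 on the right (71.4%, 47.8% to 88.7%). With the narrow site described below left out, ESC had 8 of 19 plus on the left, an interval of 20.3% to 66.5% that includes the NPC value. A difference between the sides in ESC was thus not detectable at this depth, nor was its absence.

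**Figure D4:**
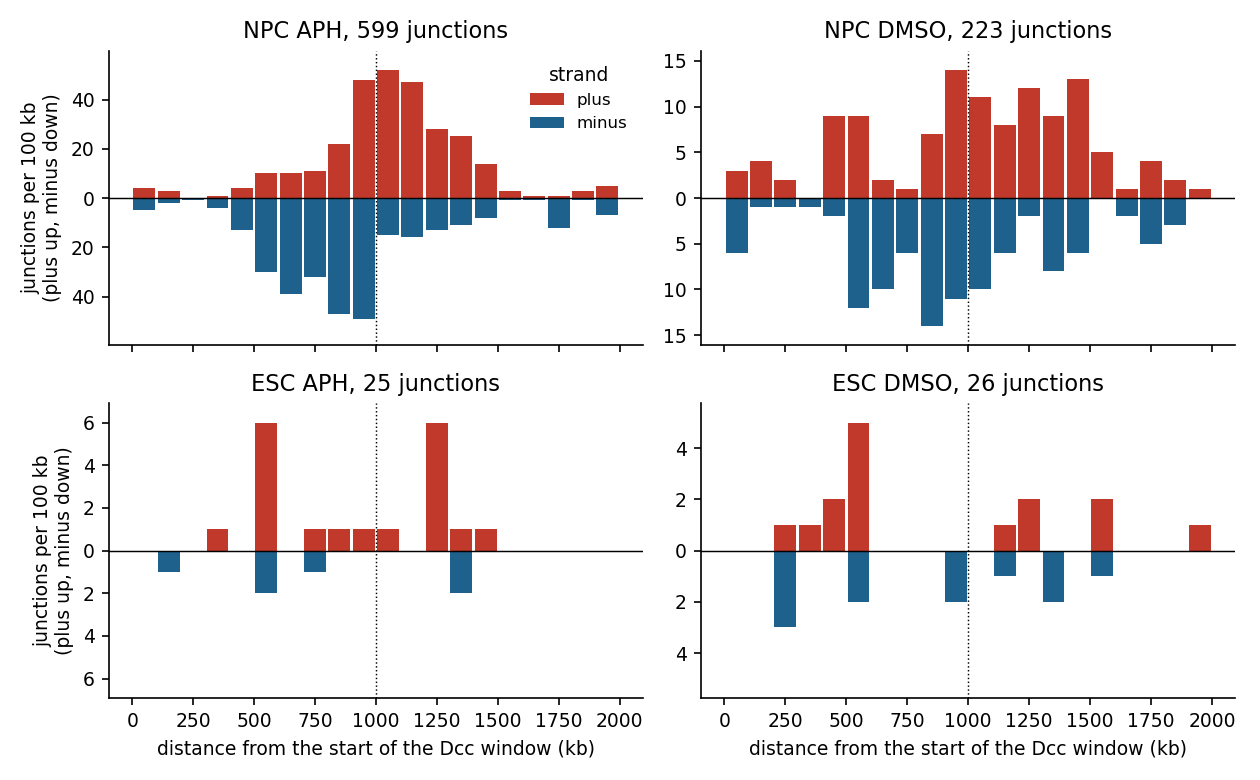
Window junctions per 100 kb segment by distance from the window's start (horizontal axis, kb), plus junctions upward and minus junctions downward (vertical axis, summed over 6 pools), for each cell type and treatment; the dotted line is the centre and the vertical scales differ. In NPC APH minus junctions prevail in each segment from 300 to 900 kb and plus junctions in each from 1000 to 1500 kb, with 48 plus and 49 minus in the segment between.

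**Figure D5:**
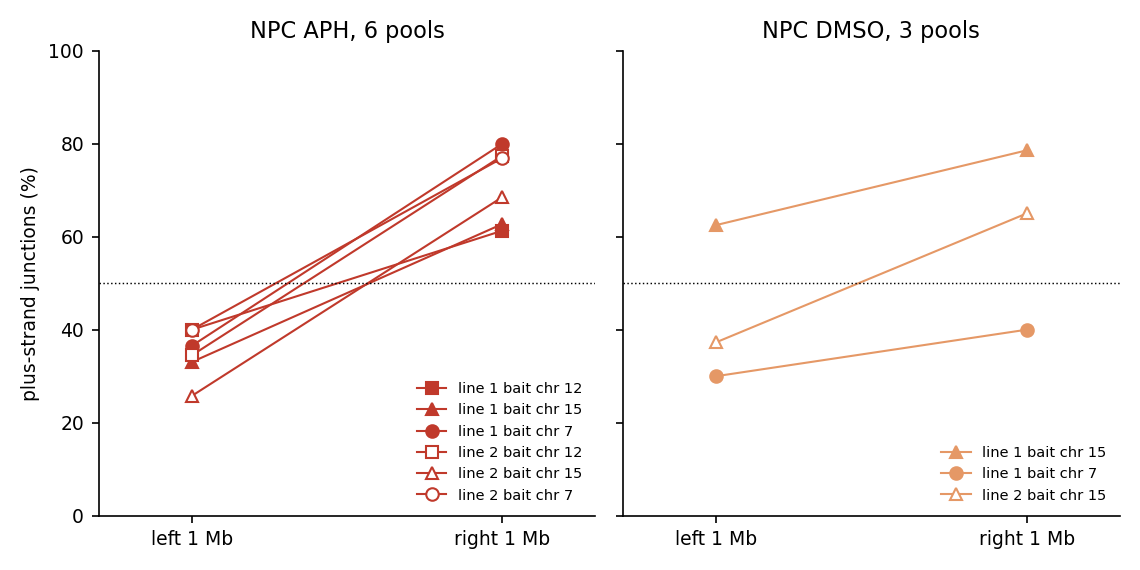
Share of plus-strand junctions (vertical axis, percent) in the left and right megabase of the Dcc window for NPC pools with at least 10 junctions in each; each line is a pool, with symbols as in the plot of the 24 pools and a dotted line at 50%. All 6 NPC APH pools rise, from 25.8% to 40.0% on the left to 61.3% to 80.0% on the right.

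A narrow site stood out from this broad distribution, and it weighed most in ESC. The busiest kilobase of the window, at 582 to 583 kb from its start, held 18 junctions, all plus, at 6 positions within 6 bases, while the next busiest kilobase held 7. They came from 10 pools, with 6 from the chromosome 7 bait and 12 from the chromosome 15 bait, and their aligned prey pieces were 33 to 38 bases long. ESC contributed 11 of its 51 window junctions to this kilobase (21.6%) and NPC 7 of 822 (0.85%). Without it, the ESC means were 37.7 ± 23.2 per 100000 under APH and 57.8 ± 39.0 under DMSO, and the NPC means 229 ± 79.7 and 117 ± 48.3 (SD, n = 6 each). This site was singled out after its counts were seen. Elsewhere the junctions were spread, with 455 of the 2000 kilobases of the window holding at least 1.

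The sequence at the junction point was also recorded, as bases shared by both ends (microhomology), bases matching neither end (inserted) or neither of these (blunt). In NPC, 591 of 822 window junctions had microhomology (71.9%, 95% Clopper-Pearson interval 68.7% to 74.9%), with a median length of 2 bases. Inserted bases were present in 20.7% (17.96% to 23.6%) and 7.42% were blunt (5.72% to 9.43%). These sums too count junctions shared by the chromosome 15 pools more than once, so the intervals are too narrow. Against junctions of the same pools on chromosomes without a bait, leaving out chromosome 18, NPC APH pools had 72.6% ± 4.87 with microhomology in the window and 75.7% ± 0.66 elsewhere (SD, n = 6). The difference was -3.16 ± 4.99 percentage points (exact sign-flip permutation p = 0.25), which is within the spread between pools, and -3.48 ± 5.51 (n = 5) without the line 2 pool of the chromosome 15 bait. The share with inserted bases was 21.0% ± 5.76 against 17.4% ± 0.75, higher in 4 of 6 pools (exact p = 0.156). Under DMSO the microhomology shares of the window ranged from 43.8% to 83.3% between pools of 15 to 119 junctions, against 76.1% ± 3.47 elsewhere (exact p = 0.5). No class passed after adjustment over the 6 tests.

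In ESC, 25 of the 51 window junctions carried inserted bases (49.0%, 34.8% to 63.4%) and 23 had microhomology (45.1%, 31.1% to 59.7%). On the other chromosomes of the same pools, 28.7% of junctions had inserted bases and 64.5% microhomology. The median insertion was 17 bases in the window and 6 bases elsewhere. With 1 to 9 window junctions a pool this was given as a summed description without a test. The narrow site gave 11 of the 51 junctions, so they are not independent and the intervals are too narrow. Shares without that site are not given, so a difference from the other chromosomes is not shown.

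By mean level on the fitted scale, the Dcc window ranked 15 of 1043 windows off the bait chromosomes in NPC APH, at 2415 CPM (counts scaled to library size) against 636 in the median window. It ranked 91 in NPC DMSO at 1162 CPM, 422 in ESC DMSO at 685 CPM and 670 in ESC APH at 520 CPM. Among 999 windows off chromosomes 7, 12, 15 and 18, the 5 whose log2 CPM (prior count 2) followed that of Dcc most closely over the 24 pools were on chromosome 10 from 109000001 to 111000000 (Pearson r = 0.79), chromosome 16 from 67000001 to 69000000 (r = 0.76), chromosome 6 from 63000001 to 65000000 (r = 0.73), chromosome 14 from 39000001 to 41000000 (r = 0.72) and chromosome 11 from 51000001 to 53000000 (r = 0.68), all in mm9. The median correlation over the 999 windows was 0.07, and the points share library, depth and cell type, so these values are descriptions. Without the NPC line 2 pools of the chromosome 15 bait the 5 correlations lay between 0.66 and 0.78. The chromosome 14 window had a mean of 2776 CPM in NPC APH and 337 in ESC APH, and the chromosome 6 window had 2388 and 681. The chromosome 11 window was alike under both NPC treatments, at 1070 with APH and 1077 with DMSO.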

How the data were processed

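The authors deposited 24 tables with 1 row per HTGTS junction (LAM-PCR-mediated, per the labels' protocols). Reads were handled with Bowtie2 on mm9, per the submitters' processing notes. The junction caller was not given in the sources used here, nor were its filters. The values used are the positions, strands and read coordinates in the deposited columns, per the file headers, and junction counts were made from the deposited rows by counting each read name once per table, which removed 18609 of 2037403 rows. All of these were in 2 pools. The NPC line 2 APH pool of the chromosome 12 bait, the highest in the Dcc window, lost 10907 of 68138 rows. The ESC line 1 APH pool of the chromosome 7 bait lost 7702 of 69064. Of the window junctions, 10 had an entry other than 0 in the filter columns and were kept. In 3 tables the experiment letters did not match the labels, so these were used as pools only. Columns of other samples numbered 0.

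Counts in 2 Mb windows laid from 1 Mb, more than 5 Mb from any bait break, were tested with edgeR 4.0.16 (R 4.3.3; TMM; filterByExpr, minimum count 5; quasi-likelihood test; Benjamini-Hochberg, 0.05), with blocks for line and bait. All 24 pools shared an estimate of the spread. DESeq2 1.42.0 was an alternative. Exact two-sided sign-flip permutation tests used line and bait pairs (Python 3.11.15, SciPy 1.17.1). The edgeR step was tested on simulated counts with 200 changed windows.

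Named were Dcc, all 500 kb bins of its window, the lowest, median and highest 100 kb segment, and the 5 windows off chromosomes 7, 12, 15 and 18 most correlated with it. Genes of the netrin pathway were to be counted only with an mm9 annotation, and were not analysed here. The window, lists and tests were chosen with earlier results of these data known. The alternatives for the NPC pools of the chromosome 15 bait and for junctions found in more than 1 pool were chosen after seeing the data.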

Additional observations from a re-analysis of the deposited data

Results flagged for a closer look

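Among 40 groups of 6 pools checked for a pool far from the others, 3 had one, and chance alone gives such a pool in about 1 in 20 groups. In the 2 Mb before the Dcc window, the NPC line 2 APH pool of the chromosome 12 bait had 67.4 junctions per 100000, while the other 5 NPC APH pools lay between 88.3 and 98.8. In the same stretch, the NPC line 1 DMSO pool of the chromosome 12 bait had 63.1, while the other 5 NPC DMSO pools lay between 90.4 and 103.7. The latter pool also had 10.7% blunt junctions on chromosomes without a bait, while the other 5 lay between 5.83% and 7.14%. No pool stood apart in this way for its level in the Dcc window itself.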

How the results depend on the processing

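Of 379 recomputed values, 358 kept their direction and their side of the 0.05 threshold. For sign-flip values the side was largely fixed beforehand: no main value passed after adjustment, and 5 pairs cannot go below an exact p of 0.0625. For these, only the direction could change when a pair was left out. The APH effect in NPC lost its call in the 500 kb bin from 1000 kb (log2 0.93), without the line and bait block (1.04) and without line 1 (0.76); leaving out each line and bait pair gave 0.79 to 1.34. The APH effect in ESC turned positive in both central 500 kb bins (0.088 and 0.67), without line 1 (0.080) and without the chromosome 12 bait (0.033), and ranged from -0.55 to 0.06 with each pair left out. With single experiments in place of pools, NPC exceeded ESC under DMSO by 1.37 (edgeR adjusted p = 0.0093). With the experiment letter as a replicate block it did so by 1.33 (edgeR adjusted p = 0.0111), and the difference of the APH effects passed at 1.84 (edgeR adjusted p = 0.0382; 0.0599 without that block). With NPC line 2 of the chromosome 15 bait also left out, it passed at 1.75 and, with the block, at 1.82. The letters were not shown to pair the experiments: 3 of 35 same-letter pairs correlated above 0.1, and 24 of 70 experiments correlated best with their own letter. These counts were not set against the level expected by chance. The ESC DMSO window fell below flanks of 4 Mb (-13.7) and ranged from -4.55 to 15.6 with each pair left out. In NPC DMSO the left plus share minus 50% was 0.56 with each position and strand once. Leaving out pairs also spanned 0 for the whole-window plus share minus 50% (-0.86 to 1.48 in NPC APH, -6.87 to 10.6 in NPC DMSO), blunt junctions in NPC APH (-0.85 to 0.11) and inserted bases in NPC DMSO (-2.12 to 4.64). The cause was not tested. Windows called higher with APH in NPC numbered 60, and 4 to 95 over the alternatives. The split at the busiest megabase fell on the window's centre, so that alternative repeats the main values. With 1 to 9 junctions a pool, depth limits every ESC value.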
